A study of Mus musculus with 24 samples.

Results

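Lifelong WT sites missing in HET were the MYT1L-bound sites of wild-type (WT) mice that were listed at all 3 ages examined and had no counterpart in adult heterozygotes (HET). Each was a site of the newborn (P0) list that overlapped, by 1 bp or more, an embryonic (E18.5) site and an adult WT site, and overlapped none of the adult HET list. Of 40698 P0 sites, 1680 met this rule, 4.13% (95% exact interval 3.94 to 4.33). The members were chosen by the presence or absence of a site in each of the 4 lists, so these memberships are given below as descriptions and without a test.

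Binding of MYT1L was mapped with CUT&RUN, in which an antibody guides a nuclease to a bound protein and the DNA released around it is sequenced. By the labels the tissue was cortex of E18.5 WT embryos, prefrontal cortex of P0 WT pups, and prefrontal cortex of adult HET and adult WT mice aged 3 months. For E18.5 the published methods differ from the labels and give prefrontal cortex. The labels give the strain as C57BL/6J for every sample, whereas the study's methods describe a line made and bred on C57BL/6N. By those methods HET mice carried a germline frameshift deletion in Myt1l on 1 allele. Sex was not given in the labels. Each group had 3 MYT1L libraries, merged by the authors into a single list, and a further 12 libraries with control IgG that are not analysed here. E18.5 and P0 libraries shared sequencing run 1, and both adult groups shared run 2, so that age and run cannot be told apart, whereas adult HET and adult WT were sequenced together. The lists held 14477 sites at E18.5, 40698 at P0, 56937 in adult HET and 32145 in adult WT. Adult HET sites were more numerous and narrower, with a median of 108 bp against 167 bp in adult WT, while the bases covered came to 6560 kb in adult HET and 6581 kb in adult WT. No height, score or depth accompanied a site. Values below therefore carry no replicate error, and their intervals cover counting error only.

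Postmitotic neurons express MYT1L, a DNA-binding zinc finger protein. It binds DNA that holds the short core AAGTT, usually written AAAGTT, and is known for keeping genes of other lineages and of the progenitor state silent, Notch signalling among them. Loss of 1 copy in people is a cause of intellectual disability. For comparison 2 other sets of P0 sites were used, both of them also present at E18.5. The first, 530 sites held in all 4 lists, differed from the members by an adult HET counterpart. The second, 11246 perinatal sites, lacked a counterpart in either adult list and so differed from the members by the adult WT counterpart alone.

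The sequences that follow are stretches of members that hold AAAGTT, the word to which MYT1L is known to bind, shown because they let the site, its genomic position and the word be read together. They were cut from build mm10 and are printed 5′ to 3′ on the strand on which the word reads AAAGTT, with every copy of the word in capitals. Stretches that touched an annotated exon were held to 30 bases.
Hes1, chr16:30065223-30065282, plus strand: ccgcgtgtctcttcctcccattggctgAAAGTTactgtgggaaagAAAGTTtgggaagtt
Sox4, chr13:28953854-28953913, minus strand: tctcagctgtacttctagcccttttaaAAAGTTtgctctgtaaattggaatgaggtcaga
Mef2d, chr3:88138561-88138620, minus strand: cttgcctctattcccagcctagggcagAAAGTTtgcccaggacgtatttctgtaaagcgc
Zbtb18, chr1:177444430-177444459, plus strand: ttcttctgttagAAAGTTtggggggaaaaa
Zbtb18, chr1:177444488-177444517, plus strand: taacagaagagaAAAGTTctcctaagaaaa
Myt1l, chr12:29534162-29534191, plus strand: tatcatgagctaAAAGTTactcagagaata
Jun, chr4:95051829-95051858, plus strand: aagagatttgcaAAAGTTcgctcccggcca
Celf2, chr2:7734781-7734840, plus strand: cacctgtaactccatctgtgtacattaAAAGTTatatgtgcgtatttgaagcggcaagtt
Pde4d, chr13:109672152-109672211, minus strand: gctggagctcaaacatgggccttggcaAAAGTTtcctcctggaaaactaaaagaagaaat
Stretches are labelled by the nearest protein-coding start. In Hes1, Sox4, Mef2d, Zbtb18, Celf2 and Pde4d the word lay inside the adult WT site as well as inside the E18.5 and P0 sites. In Jun and Myt1l the printed word lay inside the E18.5 and P0 sites and outside the adult WT site.

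A further 2 stretches are shown whole because they are bases common to the E18.5, P0 and adult WT sites of 2 neuronal genes, outside any annotated exon. Capitals mark any of 13 words of known factor families, read on either strand, and the plus strand is printed.
Tubb3, chr8:123412629-123412904: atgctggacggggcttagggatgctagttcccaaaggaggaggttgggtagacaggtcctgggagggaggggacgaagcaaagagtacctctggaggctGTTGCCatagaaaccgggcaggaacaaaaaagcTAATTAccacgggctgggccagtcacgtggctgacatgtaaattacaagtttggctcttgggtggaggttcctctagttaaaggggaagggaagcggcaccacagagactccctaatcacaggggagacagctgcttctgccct
Bdnf, chr2:109678259-109678416: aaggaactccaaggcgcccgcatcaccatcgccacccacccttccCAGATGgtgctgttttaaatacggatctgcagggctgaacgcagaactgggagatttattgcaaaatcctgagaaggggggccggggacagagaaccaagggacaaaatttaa
The Tubb3 stretch held a half-site word of RFX factors (GTTGCC) and a homeodomain word (TAATTA), and the Bdnf stretch an E-box of the kind bound by neurogenic factors (CAGATG). Within 75 bp of their midpoints 6.54% of all P0 sites held GTTGCC, 6.41% TAATTA and 12.9% CAGATG. The stretches, of 276 bp and 158 bp, are longer than that window, and 13 words were searched. These shares therefore understate how often such a stretch holds some word.

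Members were wide sites in the younger lists and narrow ones in the adult. Their E18.5 sites had a median length of 710 bp, their P0 sites 565 bp (quartiles 401 and 795.5, range 111 to 3375) and their adult WT sites 228.5 bp. The adult WT site lay wholly within the P0 site in 1240 members (73.8%), and 1629 members (97.0%) touched a single adult WT site, so the adult site was usually a part of the newborn one. The midpoints of the P0 and adult WT sites were a median of 88 bp apart. The bases common to all 3 WT lists had a median length of 211 bp and reached 1171 bp. At the other end 40 members (2.38%) had no base that all 3 lists shared, since the E18.5 and adult WT sites touched different parts of the P0 site, and 6 members shared fewer than 10 bp with adult WT.

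The sites held in all 4 lists were longer at each age, with medians of 814.5 bp at E18.5, 665 bp at P0 and 331 bp in adult WT, and the interquartile ranges of both sets overlapped at each age. Perinatal sites had a median of 448 bp at P0, and all P0 sites 276 bp. Members thus stood between the sites held in all 4 lists and the perinatal sites in length. A wider P0 site more readily overlaps a further list by 1 bp, so the rule itself favours this order, and no test was made of it.

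**Figure D1:**
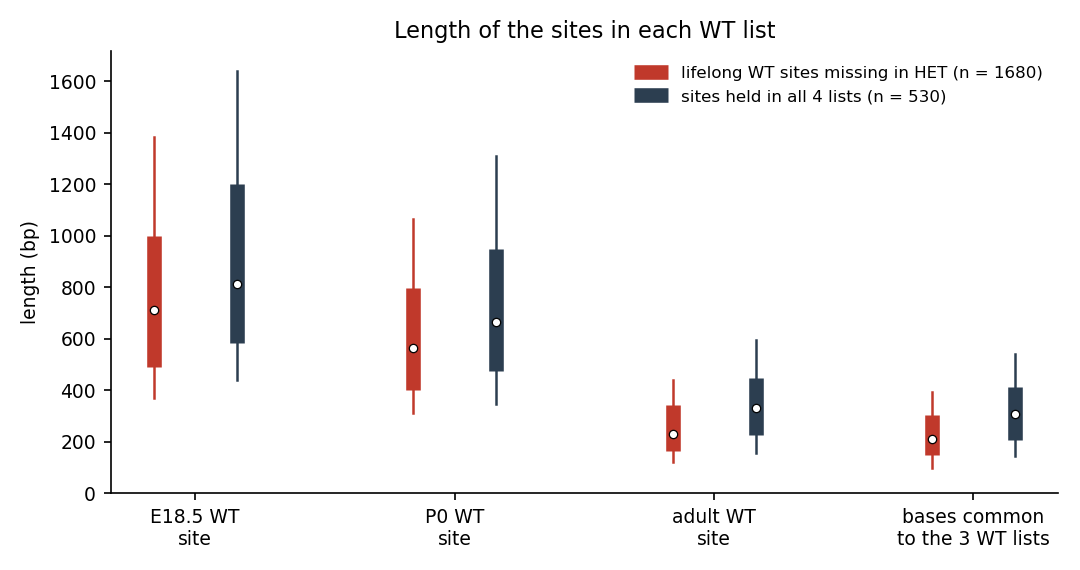
Length in bp of the E18.5, P0 and adult WT sites, and of the bases common to the 3 lists, for lifelong WT sites missing in HET (left of each pair) and sites held in all 4 lists. Points are medians, thick bars the quartiles and thin bars the 10th to 90th percentiles; member medians were 710, 565, 228.5 and 211 bp.

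Absence from the adult HET list was the usual state of a P0 site, as was absence from the adult WT list. Of 40698 P0 sites, 11965 that were present at E18.5 and 25480 that were not had no adult WT counterpart. Of all P0 sites 95.4% had no adult HET counterpart, and of the 2210 P0 sites present in both E18.5 and adult WT lists 76.0% (74.2 to 77.8) had none. The share was 94.0% (93.55 to 94.4) for P0 sites present at E18.5 and not in adult WT, and 98.0% for P0 sites in neither. Sites that WT mice carried at all 3 ages were therefore listed in HET more often than other P0 sites, and the members are the larger part of them that was not. The cortex is a mixture of cell types, and absence from a list is not absence of binding. Fewer MYT1L-bearing cells, less binding per cell, and a difference in depth or fragment size cannot be told apart. Counted from the adult WT list, 1794 of 2255 sites also present at E18.5 and P0 had no HET counterpart (79.6%), against 91.6% of all adult WT sites.

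Most members had no adult HET site close by. The median distance to the nearest one was 13734 bp (quartiles 5094 and 31512), against 15936 bp for perinatal sites and 15761.5 bp for all P0 sites without a HET overlap. An adult HET site lay within 1 kb of 135 members (8.04%, 6.78 to 9.44), against 6.38% of perinatal sites, and within 10 kb of 673 members (40.1%), against 36.9% of perinatal sites. The distances of the members and of the other P0 sites overlapped over almost their whole range. Nearest to the limit of the rule, on the inside, was a site at Apoh (chr11:108378134-108378385), 18 bp from an adult HET site, followed by sites at Ttc22 (34 bp) and Pom121l2 (35 bp). Just outside it were sites at Cmpk2, St7 and Zbtb11, which shared 1, 10 and 13 bp with an adult HET site.

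**Figure D2:**
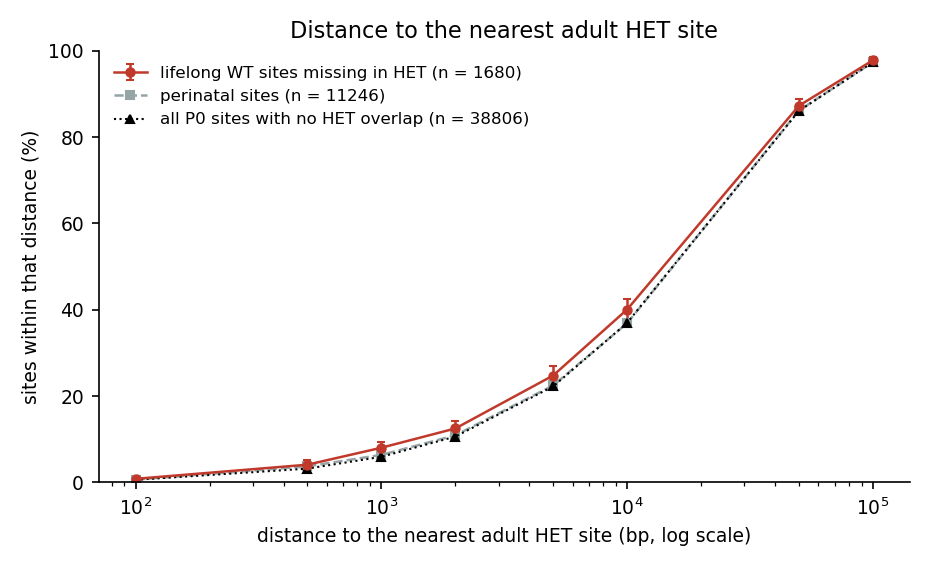
Percent of sites (vertical axis) whose nearest adult HET site lay within the distance on the horizontal axis (bp, log scale), for lifelong WT sites missing in HET with 95% exact intervals, perinatal sites and all P0 sites with no HET overlap. The 3 curves run close together, with 8.04% of members within 1 kb and 40.1% within 10 kb.

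The members were gathered at gene promoters. A promoter was the stretch from 1 kb before to 100 bp after an annotated transcription start, and 777 members (46.25%, 43.8 to 48.7) had their midpoint in one, whereas 30.6% (29.7 to 31.4) of perinatal sites and 22.9% of all P0 sites did. The odds were 1.95 times those of perinatal sites (1.76 to 2.17, Fisher's exact test, two-sided, Benjamini-Hochberg adjusted p = 3.4e-34 over 32 comparisons). Sites held in all 4 lists had a promoter share of 52.5% (48.1 to 56.8), and the odds ratio of members to these was 0.78 (0.641 to 0.949, exact test, adjusted p = 0.074), which did not pass the threshold of 0.05. With promoters of protein-coding genes alone it was 0.763 and did (exact test, adjusted p = 0.037). Of the other members 477 (28.4%) lay in introns, 377 (22.4%) between genes and 49 (2.92%) in exons. These shares were 23.8%, 19.4% and 4.34% in sites held in all 4 lists. They were 36.9%, 28.8% and 3.66% in perinatal sites, and 41.9%, 31.0% and 4.15% in all P0 sites.

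At protein-coding promoters most members reached the start itself. Of 724 such members 655 covered a start, and the midpoint lay at a median of -100 bp from the nearest one, within a promoter definition that is itself mostly upstream. Both values are given for members only. CpG-island-like sequence, a 300 bp window of high GC content and CpG frequency of the kind found at housekeeping promoters, was present at 482 of them (66.6%). At promoters of any gene the share was 65.0% in members, 69.4% in sites held in all 4 lists and 62.7% in perinatal sites. More than 100 kb from any protein-coding start lay 314 members (18.7%). This share was 18.1% in sites held in all 4 lists, and it was higher in perinatal sites (24.99%) and in all P0 sites (25.3%). The difference was not tested.

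Several sequence features of the members differed from those of perinatal sites, and none differed from those of sites held in all 4 lists past the threshold. Of 16 features tested, 5 passed against perinatal sites, the promoter share included, 4 higher and 1 lower in members, and 0 passed against the sites held in all 4 lists by the same test, where the promoter and CpG-island shares were the ones below an unadjusted 0.05 (exact p = 0.014 and p = 0.033). These p-values compare sets of sites, not conditions, since each list is a single merged record. CpG-island-like sequence was found at 34.4% of members (32.1 to 36.7), at 39.6% of sites held in all 4 lists and at 24% of perinatal sites (odds ratio to perinatal sites 1.66, 1.49 to 1.86, exact test, adjusted p = 8.2e-18), against 18.0% of all P0 sites. The excess followed the promoters. Within promoter and other sites taken separately the odds ratio was 1.13 (chi-square test of Cochran, Mantel and Haenszel, adjusted p = 0.23).

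Sites made mostly of repeats were scarce in members. Only 3 of 1680 (0.179%, 0.0368 to 0.521) consisted of repeat sequence over at least 50% of their length, against 1.44% of perinatal sites (odds ratio 0.122, 0.0390 to 0.384, exact test, adjusted p = 3.3e-06) and 4.52% of all P0 sites. Sites held in all 4 lists had 2 of 530 (0.377%), and the difference from these did not pass.

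The word AAAGTT was no more frequent in members than in P0 sites at large. It lay within 75 bp of the midpoint in 224 members (13.3%, 11.7 to 15.1), in 12.3% (9.59 to 15.4) of sites held in all 4 lists and in 15.5% (14.9 to 16.2) of perinatal sites, and 14.6% of all P0 sites carried it there. The odds ratio was 1.10 (0.819 to 1.48, exact test, adjusted p = 0.77) to the sites held in all 4 lists and 0.837 (0.720 to 0.972, adjusted p = 0.074) to perinatal sites. Over whole P0 sites the first of these turned to 0.809, without adjustment for length. Sites held in all 4 lists were the longer there, with a median of 665 bp against 565 bp in members. Whichever set was taken, the word was commoner away from promoters, at 17.1% of other members against 9.01% of promoter members. Centring on the adult WT site in place of the P0 site, done for members only, gave 225 members (13.4%). Somewhere in the P0 site 643 members (38.3%) held the word, as did 43.4% of sites held in all 4 lists and 38.5% of perinatal sites. The density of the word in the first 100 bp from the midpoint was 1.03 per kb in members, 1.02 per kb in sites held in all 4 lists and 1.15 per kb in perinatal sites. Farther out it was lower in each set. In members it ran from 0.643 per kb (400 to 500 bp) to 0.905 per kb (600 to 700 bp). The range was 0.660 to 0.868 per kb in sites held in all 4 lists and 0.739 to 0.961 per kb in perinatal sites.

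Of the other words searched on both strands, the CCAAT box of NF-Y and the GC box of SP and KLF factors passed against perinatal sites. CCAAT was present in 29.2% of members (27.1 to 31.5), in 29.8% of sites held in all 4 lists and in 23.4% of perinatal sites (odds ratio to perinatal sites 1.35, 1.2 to 1.51, exact test, adjusted p = 3.1e-06), with 21.8% of all P0 sites. At promoters the CCAAT shares were 36.0% in members and 27% in perinatal sites, and elsewhere 23.4% and 21.9%. GGGCGG was present in 20.1% of members (18.2 to 22.1) and in 13.9% of perinatal sites (odds ratio 1.56, exact test, adjusted p = 1.2e-09), with 11% of all P0 sites. This difference was lost within promoter and other sites (odds ratio 1.12, chi-square test, adjusted p = 0.25). The neurogenic E-box CAGATG was found in 15.1% of members and 13% of perinatal sites (odds ratio 1.19, exact test, adjusted p = 0.074), with 12.9% of all P0 sites. Away from promoters it was present in 22.8% of members (20.1 to 25.7), in 19.8% of sites held in all 4 lists and in 16.3% (15.5 to 17.2) of perinatal sites, and within promoter and other sites, a split made after the shares were seen, the odds ratio to perinatal sites was 1.42 (chi-square test, adjusted p = 1.9e-05). TAATTA had 5.12% of members and 6.65% of perinatal sites (exact test, adjusted p = 0.074), with 6.41% of all P0 sites.

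**Figure D3:**
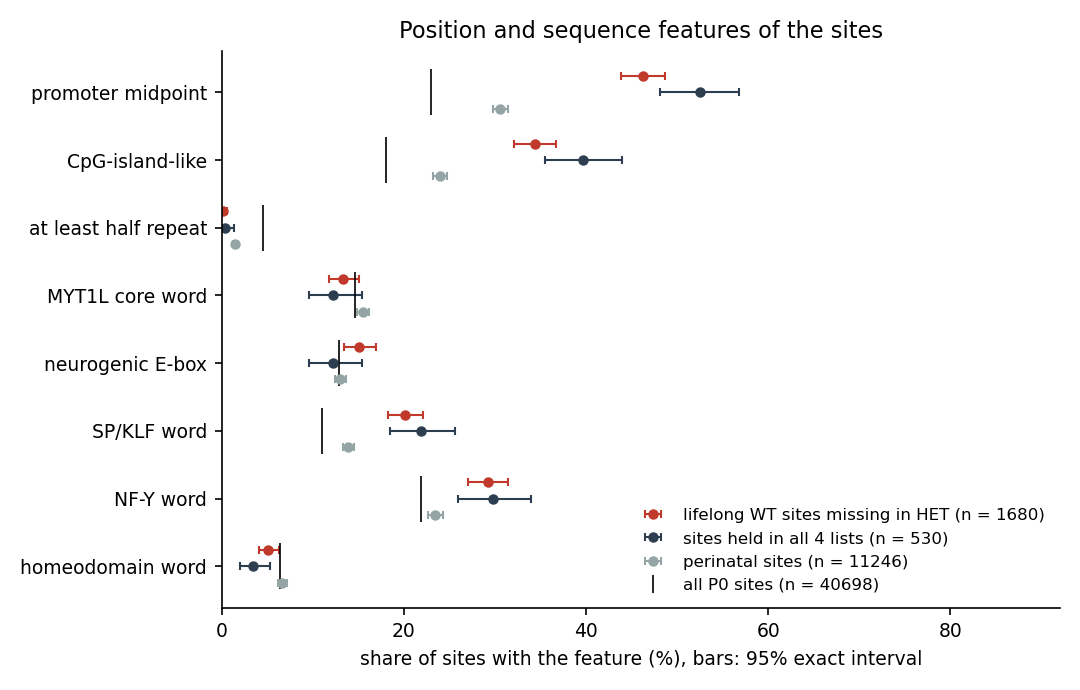
Share of sites (%) with each position or sequence feature in lifelong WT sites missing in HET, sites held in all 4 lists and perinatal sites, with 95% exact intervals, and in all P0 sites (vertical tick). Members lie above perinatal sites for promoters (46.25% against 30.6%), CpG-island-like sequence and the SP/KLF and NF-Y words, and below them for repeats (0.179% against 1.44%).

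Among promoter members the longest stretch common to the 3 WT lists was that of Fbxl19, an F-box protein that binds CpG islands (chr7:127744430-127746499). The site had 2187 bp at E18.5, 2070 bp at P0 and 1171 bp in adult WT, all 1171 bp of it common to the 3 lists, with no adult HET site within 17251 bp. The promoter of Fbrs, which encodes a subunit of a Polycomb repressive complex (chr7:127477668-127479036), had 1127 common bp over its adult WT sites and its nearest adult HET site 6530 bp away. The member at Dctpp1, a nucleotide pyrophosphatase, had 576 common bp and lay on chromosome 7 as well. Jun, the AP-1 subunit (chr4:95051272-95053534), had 2390 bp at E18.5 and 2263 bp at P0, with 711 common bp spread over 2 adult WT sites. The P0 site held 3 copies of AAAGTT, none of them inside an adult WT site. No adult HET site was nearer than 11278 bp. Irf2bp2, a transcriptional co-repressor, had 802 common bp and an adult HET site 1799 bp away. Bbip1, a subunit of the BBSome of cilia, had 744 common bp, Cct7, a subunit of the cytosolic chaperonin, 633, and Ttc9c 998. None of the members at Fbxl19, Fbrs, Irf2bp2, Bbip1, Cct7, Dctpp1 and Ttc9c held AAAGTT.

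Away from promoters the longest shared stretch (chr2:7733767-7735170) lay in an intron, and the nearest protein-coding start was that of Celf2, an RNA-binding splicing regulator. The site lay upstream, at -338469 bp from that start, and which gene holds the intron was not determined. This site had 1657 bp at E18.5, 1404 bp at P0, 1072 bp in adult WT and all 1072 bp common. The P0 site held 3 copies of AAAGTT and its nearest adult HET site was 6402 bp away. An intron of Pde4d, a cyclic AMP phosphodiesterase (chr13:109671337-109672321), had 968 bp at E18.5, 985 bp at P0, 733 bp in adult WT and 665 common bp. Its P0 site again held 3 copies of AAAGTT, and an adult HET site was only 164 bp away. At Dnaaf5, a dynein assembly factor, the figures were 625 common bp and 10351 bp to the nearest adult HET site. Further sites were in gene-poor DNA, where a nearest gene says little. Those nearest to Fam19a2, Xkr4 and Car8 were 576218, 551386 and 386613 bp from a protein-coding start, and had 709, 708 and 686 common bp. The member for which Apob was the nearest gene lay farther still from it, and had 710 common bp and an adult HET site 1033 bp off, and that in an intron of Vwa8 had 695 common bp.

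**Figure D4:**
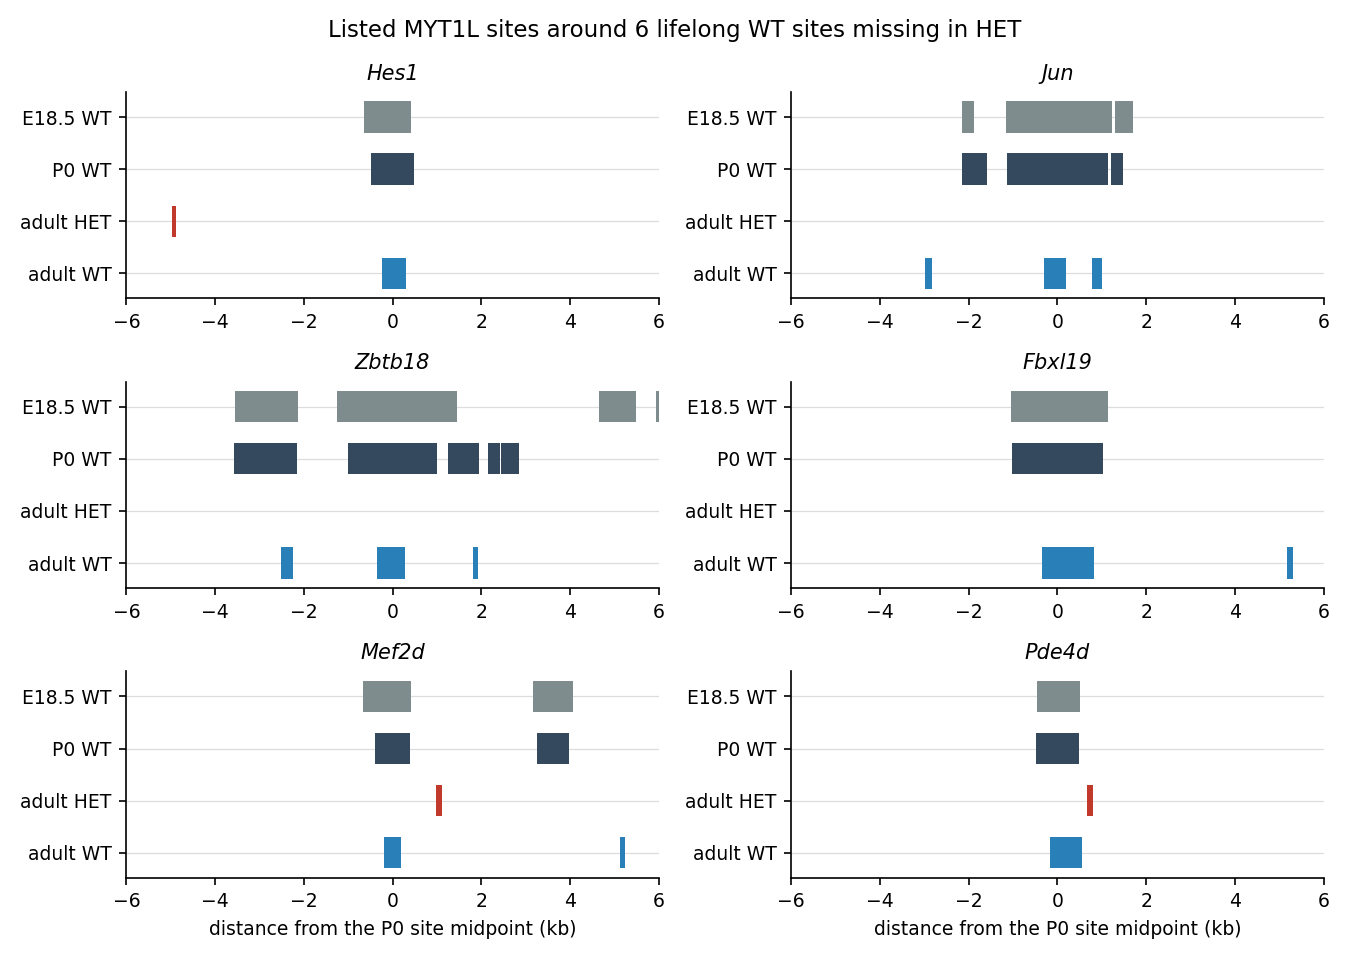
Sites listed at E18.5, P0, in adult HET and in adult WT within 6 kb of 6 lifelong WT sites missing in HET, by distance in kb from the midpoint of the P0 site; each bar is a listed site drawn to scale. No adult HET site lies in the windows of Jun, Zbtb18 and Fbxl19, and 1 lies beside the site in each of Hes1, Mef2d and Pde4d.

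A gene counted as a target when a site came within 5 kb of any of its annotated starts. By this definition 1143 of 21938 protein-coding genes (5.21%) had a lifelong WT site missing in HET. A P0 site of any kind was present at 10080 genes, and 11.3% of these had a member. A single member was present at 1109 target genes, 2 at 31 and 3 at 3 genes, while 772 members (46.0%) had no protein-coding start within 5 kb. The genes with 3 members were Zbtb18, a zinc finger repressor needed for cortical neuron development, Dnajb5, a heat shock co-chaperone, and Hist1h3b, a replication-dependent histone H3 gene. At Zbtb18 the 3 members were among 5 P0 sites and at Hist1h3b among 4, each gene with 0 adult HET sites within 5 kb. At Dnajb5 the 3 members were among 5 P0 sites with 1 adult HET site. The Zbtb18 members at chr1:177443441-177445449 and chr1:177445701-177446402 overlapped the same E18.5 site, and the latter had no base common to the 3 WT lists. The Hist1h3b members at chr13:23751527-23751886 and chr13:23752055-23752448 likewise shared an E18.5 site.

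An adult HET site of any kind, at another position, lay within 5 kb of a start in 317 of the 1143 target genes (27.7%, 25.2 to 30.4), against 29.1% of genes with any P0 site, 38.8% of genes with an adult WT site and 23.4% of all protein-coding genes. Of the 1143 genes 38 also had a site held in all 4 lists, and without these the share was 25.2%. The rule removes sites with a HET overlap and so lowers this share by construction, and no test was made of it.

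Histone genes were the list with most targets among 11 lists. Of 67 replication-dependent histone genes 37 (55.2%) had a member within 5 kb, against 5.21% of all protein-coding genes. They are packed in clusters, chiefly on chromosome 13, and 16 members accounted for all 37 genes, so the genes are not separate observations. A P0 site was present at 65 of the 67, 37 also had a site held in all 4 lists, and 24 of the 37 with a member also had an adult HET site. The member with the longest common stretch spanned Hist1h2be (chr13:23620390-23622055), with 1703 bp at E18.5, 1666 bp at P0 and 842 bp in adult WT, and the nearest adult HET site was 34253 bp away. Histone genes are near-identical copies, and where a read that fits several copies was placed is not given in the sources used here. Ribosomal protein genes had a member at 11 of 83 (13.3%, 6.81 to 22.5). Among them were Rps3 and Rpl41, with Rps27a only 133 bp from an adult HET site.

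Neural transcription factors followed with 9 of 45 (20%, 9.58 to 34.6), out of 43 that had a P0 site. They were Mef2d, Myt1l, Nfia, Nfix, Sox4, St18, Tbr1, Tcf4 and Zbtb18, and 6 of the 9 had an adult HET site elsewhere within 5 kb. Zbtb18 carried a promoter site (chr1:177443441-177445449) of 2706 bp at E18.5, 2009 bp at P0 and 629 bp in adult WT. The P0 site held 8 copies of AAAGTT, of which only those printed above lay inside the adult WT site. The nearest adult HET site was 9146 bp away. The promoter site of Tbr1, which specifies deep-layer cortical neurons, had 944 bp at E18.5, 823 bp at P0 and 288 bp in adult WT, and the adult HET list had nothing within 29304 bp. Sox4, a factor of immature neurons, had 359 common bp and 12250 bp to the nearest adult HET site. Mef2d, an activity-responsive factor of neurons, had its member upstream of its start with 389 common bp and an adult HET site 586 bp away.

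Myt1l itself was among these genes. A promoter member (chr12:29534072-29534598) had 1330 bp at E18.5, 527 bp at P0 and 149 bp in adult WT, all 149 bp common, with an adult HET site 494 bp away. A second, in an intron (chr12:29529720-29531259), had 4809 bp at E18.5, 1540 bp at P0 and 99 bp in adult WT. There the E18.5 and adult WT sites shared no base, and the nearest adult HET site was 3833 bp away. St18, which encodes a paralogue of MYT1L, had an intronic member of 292 bp with 22 common bp and an adult HET site at 2423 bp. Myt1l and St18 were singled out after their values were seen, because they belong to the family of the measured protein.

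In the Notch pathway 4 of 31 genes had a member (12.9%, 3.63 to 29.8), and 18 had a P0 site. Hes1, the transcriptional repressor through which Notch holds progenitors undifferentiated, had a promoter member (chr16:30064703-30065687) of 1058 bp at E18.5, 985 bp at P0 and 540 bp in adult WT, all 540 bp common. It held 2 copies of AAAGTT and an adult HET site lay 4390 bp away. Maml1 and Maml3 encode co-activators of the Notch transcription complex. Maml1 had a promoter member with 123 common bp and Maml3 an intronic one of 2746 bp at P0 with 107. Dtx4, an E3 ligase of the pathway, had a promoter member with 179. None of the 4 genes had an adult HET site within 5 kb of a start. Of all target genes of members 27.7% had one, a share that the rule itself lowers.

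Wnt pathway genes had a member at 5 of 45 (11.1%, 3.71 to 24.1). These were Axin1 and Axin2, scaffolds of the complex that degrades beta-catenin, Gsk3a, its kinase, Dvl2, which relays the receptor signal, and Fzd3, a receptor with a role in axon guidance. The site at Fzd3 had 426 common bp and lay at the shared promoter with Fbxo16, and that at Dvl2 had 455 and was centred nearer to Phf23, so neither belongs to the Wnt gene alone. Axin2 had no base common to the 3 lists. Gsk3a had 260 common bp and an adult HET site 536 bp away.

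Immediate early genes, which neurons switch on within minutes of activity, had members at 5 of 26 (19.2%, 6.55 to 39.4), namely Bdnf, Dusp1, Egr3, Jun and Klf4. Egr3, a zinc finger activity-response factor, had 417 bp at E18.5, 504 bp at P0 and 235 bp in adult WT, all common, and its nearest adult HET site was 74345 bp away. Dusp1, a phosphatase that ends MAP kinase signalling, had 164 common bp and 83923 bp to the nearest adult HET site. Bdnf, a neurotrophin, had an intronic member crossed by 3 adult WT sites, with 261 common bp and an adult HET site at 1714 bp.

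Genes of synapse and axon had a member at 5 of 52 (9.62%, 3.20 to 21). They were Adgrl1, a presynaptic adhesion receptor, Efnb2, an ephrin, Map1b and Tubb3, of the neuronal cytoskeleton, and Snap25, of the vesicle fusion machinery. Snap25 had 481 bp at E18.5, 575 bp at P0 and 115 bp in adult WT at its promoter, with an adult HET site 595 bp away, and Adgrl1 had 364 common bp and none within 16065 bp. Chromatin regulators had 3 of 40 (7.50%, 1.57 to 20.4), the remodeller gene Chd2 and the histone demethylase genes Kdm5c and Kdm6b, although 38 of the 40 had a P0 site. Kdm5c had 268 common bp, and its nearest adult HET site was 109208 bp away. Among ion channels the 1 gene of 40 was Scn2a, a neuronal sodium channel, with 430 bp at E18.5, 568 bp at P0 and 282 bp in adult WT, all common, and an adult HET site at 9358 bp. Genes of astrocytes and oligodendrocytes had 0 of 23 (upper limit 14.8%), with 8 that had a P0 site, and genes of heart and skeletal muscle 0 of 29 (upper limit 11.9%), with 1. By the rule only a gene with a P0 site can have a member, and 11.3% of all genes with one did. Counted over such genes alone, the share was 56.9% (44.0 to 69.2) for histone genes, 20.9% (10 to 36.0) for neural transcription factors, 22.7% (7.82 to 45.4) for immediate early genes and 14.7% (7.56 to 24.7) for ribosomal protein genes. For Notch genes it was 22.2% (6.41 to 47.6), and for the 27 Wnt genes with a P0 site 18.52% (6.30 to 38.1). Synapse and axon genes, 46 of them with a P0 site, had 10.9% (3.62 to 23.6). Chromatin regulators had 7.89% (1.66 to 21.4), and the 27 ion channel genes with a P0 site 3.70% (0.0937 to 18.97). Among all these intervals that of histone genes, which share sites, lay above 11.3%, and the others included it. No test was run on a list.

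**Figure D5:**
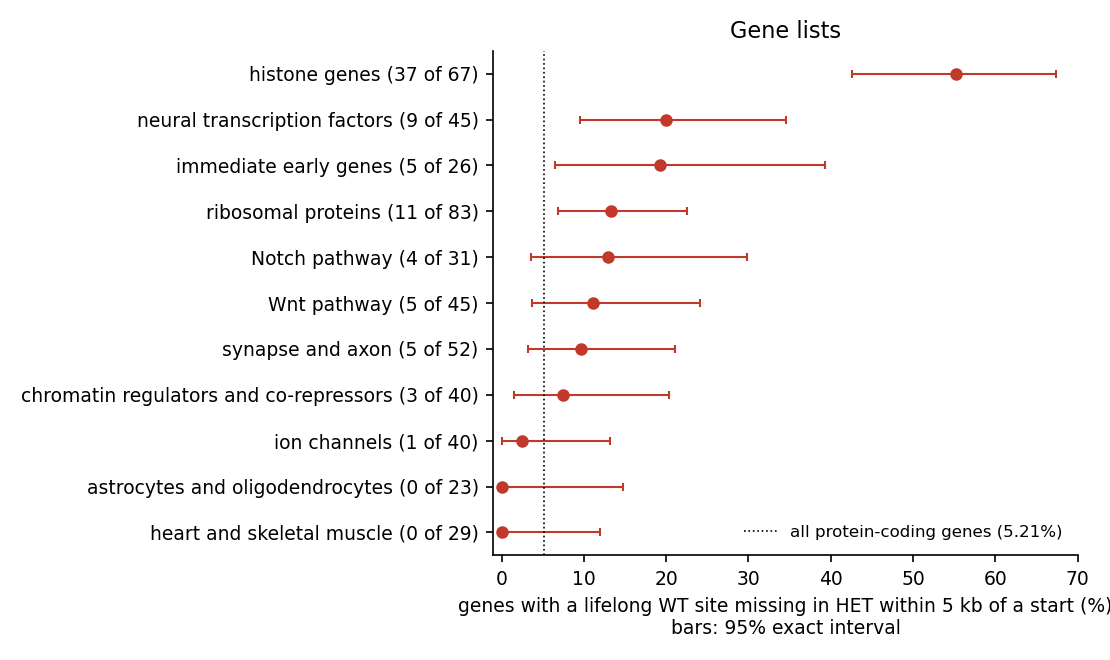
Percent of genes in each of 11 lists with a lifelong WT site missing in HET within 5 kb of a transcription start, with 95% exact intervals that treat genes as separate, and the share of all protein-coding genes (dotted line, 5.21%). Histone genes stand highest at 55.2%, though 16 sites account for all 37 of them.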

How the data were processed

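Per the labels and the study's methods, the authors mapped CUT&RUN reads to build mm10 with the nf-core/cutandrun pipeline. For aligner, peak caller and threshold: not given in the sources used here. Their deposited unit is other than a signal: the authors deposited start and end positions of sites in bp, merged over 3 libraries per group, without counts or scores. Library depth was unknown. Some adult titles name Myt2l or Myt3l and were taken as MYT1L, since their descriptions name the Myt1l list. The labels give no animals.

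Overlaps, distances and words were computed with numpy 2.4.6, pandas 2.3.3 and scipy 1.17.1 under Python 3.11.15, and stratified odds ratios with statsmodels 0.14.6. Genes and starts came from GENCODE M21 (basic set), of the same assembly as mm10, and sequence from its RefSeq copy. A site counted as CpG-island-like when the 300 bp about its midpoint had over 50% GC and an observed to expected CpG ratio over 0.6. The 13 words were AAAGTT (MYT1L), TTGGCA (nuclear factor I), TGACGT (CREB), TGACTC (AP-1), CAGATG (neurogenic factors), GTGGGC (EGR), GGGCGG (SP and KLF), CCGGAAG (ETS), GCGCATGC (NRF1), CCAAT (NF-Y), AAGATGG (YY1), TAATTA (homeodomain) and GTTGCC (RFX), sought on both strands within 75 bp of midpoints. TTGGCA can overlap CCAAT read on the other strand, and GTGGGC can overlap GGGCGG. Intervals are exact (Clopper-Pearson) at 95%. Fisher's exact test compared members with each of 2 sets over 16 features, 32 comparisons in all, at an adjusted p of 0.05. The code was tested on simulated sites.

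Named sites were the 12 protein-coding promoter members and 8 others with most bases common to the 3 WT lists, up to 4 genes per list, Hes1, and genes with 3 members. A few sites and sequences that this rule would name are not reported here. Genes named beyond these, and the sequences printed from among the named sites, were chosen after their values were seen. The members, gene lists and rules were chosen with earlier results of these data known.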

Additional observations from a re-analysis of the deposited data

How the results depend on the processing

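The count of lifelong WT sites missing in HET stayed between 1470 (no adult HET site within 2 kb) and 1794 (adult WT sites counted) against 1680. The promoter share against sites held in all 4 lists passed the threshold with promoters of protein-coding genes alone (odds ratio 0.763). The lower AAAGTT share against perinatal sites passed with P0 sites under 200 bp apart merged (0.780), with 50 bp each side (0.784) and with 250 bp each side (0.774), and was 0.970 within GC terciles, 0.932 within promoter and other sites and 0.991 over whole sites. The CpG-island-like share against perinatal sites did not pass within promoter and other sites (1.13). Adult HET sites elsewhere at target genes were 27.7% at 5 kb, 7.45% at 1 kb and 38.6% at 10 kb, by the distance itself. Chosen after seeing the data, stratifying the other words lost the GGGCGG difference from perinatal sites (1.16 within GC terciles, 1.12 within promoter and other sites) and brought the CAGATG difference past the threshold (1.32 and 1.42). Direction turned only for differences that passed neither before nor after. For AAAGTT against sites held in all 4 lists the odds ratio was 1.10, and 0.914 with 50 bp each side, 0.913 with 250 bp and 0.809 over whole sites. Within GC terciles and within promoter and other sites, against sites held in all 4 lists, TTGGCA had 0.944 and 0.943 (1.01 unstratified) and GGGCGG 1.08 and 1.01 (0.899), and CCAAT 1.01 in the second (0.972). Against perinatal sites, GTGGGC had 0.915 and 0.948 (1.11), CCGGAAG 0.978 and 0.907 (1.30), GCGCATGC 0.833 and 0.810 (1.08), and TTGGCA 1.01 in the second (0.879). The cause was not tested.

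No paired analysis was possible because each list was merged over its libraries and carries no replicate numbers, and leaving out a library was impossible for the same reason. Absence from a list is not absence of binding, since no score shows how near a site came to being listed. Depth and fragment size were unknown, adult HET sites are narrower than adult WT sites, and a shared base of 1 bp counts as much as a full overlap.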
